A study of Mus musculus with 8 samples.

Results

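The set comprised 34 transcription factors and co-regulators of the developing heart, picked by gene symbol from a table of 23846 gene entries, and all 34 were found. Poly(A) RNA of whole mouse hearts at embryonic day 11.5 (E11.5) was sequenced in 4 control and 4 knockout (cKO) libraries, to ask how loss of the enzyme OGT (O-GlcNAc transferase) in heart muscle cells changed the transcriptome. The cKO embryos were male Ogt f/y; TnT-Cre animals, in which Cre recombinase driven by the cardiac Troponin T promoter deleted the floxed X-linked Ogt gene in cardiomyocytes, while the other cells of the heart kept it. Controls were littermates titled OGTWT, whose exact genotype was not stated. In the paper's cross, male littermates without Cre were Ogt f/y. The strain was given as B6 in the labels and as a mixed background in the methods. Neither source says how many hearts made a library, or that the libraries of a group came from separate embryos, so p-values measure the spread between these libraries, which may in part be technical.

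The heart is built by a network of DNA-binding proteins that switch on muscle genes in the myocardium and then divide it into chambers, conduction tissue and valves. Nkx2-5, the GATA factors, Tbx5, the MEF2 proteins and the HAND proteins bind cardiac enhancers together and control each other's genes. Around this core, repressors such as Tbx2 and Tbx3, the Iroquois and TALE homeodomain proteins and factors of the compact wall set regional programmes, and co-regulators such as the CITED proteins act without binding DNA themselves.

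Ogt was 41.6, 43.3, 37.5 and 46.2 FPKM (fragments scaled to transcript length in kilobases and to the mapped fragments of the library) in control libraries 1 to 4. It was 20.1, 21.6, 24.7 and 21.5 FPKM in cKO libraries 1 to 4, below every control. All 8 libraries had Y-linked transcripts, with Ddx3y between 11.5 and 17.7 FPKM, and Xist at no more than 0.0741 FPKM. The FPKM of a library summed to between 539037 and 638014 in controls and between 562691 and 597833 in cKO, and the relative depth read from the lowest values differed by at most 1.25 times from that of control 1. Control library 3 stood apart: it held the highest control value for 46.6% of all genes tested and the lowest for 26.2%, and the highest or the lowest for 22 of the 33 members tested. In GEO's descriptions, controls 1 and 2 and cKO 1 share one name prefix and the other 5 libraries share another, whose meaning is not stated.

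No member of the GATA, NK2, T-box or HAND families was called, and those called belonged to the Iroquois, TALE, MEF2, growth and CITED groups. With limma on log2(FPKM + 0.5) over the 12629 entries with a mean of at least 1 FPKM, 33 of the 34 members were tested and 8 passed an adjusted p of 0.05. Cited1, Irx2, Irx1, Meis1, Mef2c (a MEF2 protein) and Foxp1 were lower in cKO, and Hopx and Mycn were higher. These 8 were 24.2% of the members tested, against 30.7% of all genes tested. By direction, 2 of the 33 members tested were higher, against 15.9% of all genes, and 6 of the 33 were lower, against 14.9% of all genes. Only Cited1 and Irx2 moved by over 1.5-fold on this scale. The median log2 fold change of the 33 members was 0.03 and that of all genes 0.02, and the median size of the change was 0.11 in the members and 0.14 in all genes.

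The 4 cKO libraries lay apart from the 4 controls in 6 of the 33 members, all of them lower in cKO, namely Cited1, Irx2, Irx1, Meis1, Mef2c and Foxp1. Of all genes tested, 32.8% had groups that did not overlap, 16.3% with cKO lower. The 25 members that were not called had log2 fold changes between -0.27 and 0.14. The 95% interval of the difference stayed within 1.5-fold in either direction for 24 of these 25, the exception being Isl1. Several cell type markers moved between the same libraries. Of 7 markers of endothelium and endocardium, 5 were lower in cKO, and their summed level was 257 to 290 FPKM in controls and 228 to 244 FPKM in cKO. Of 7 markers of epicardium, 5 were higher, with sums of 179 to 195 and 224 to 261 FPKM. None of 6 cardiomyocyte markers was called, with sums of 5290 to 5762 FPKM in controls and 4988 to 5659 FPKM in cKO, and no marker of these 3 lists was at 0. Of 5 erythroid (red blood cell) markers, mostly haemoglobin genes, 0 were called. Their sums spread widely, from 13095 to 47847 FPKM in controls and from 25349 to 37909 FPKM in cKO. In whole hearts, fewer cells of a type and less RNA per cell cannot be told apart, and the part of these markers in the members' differences was not tested.

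**Figure D1:**
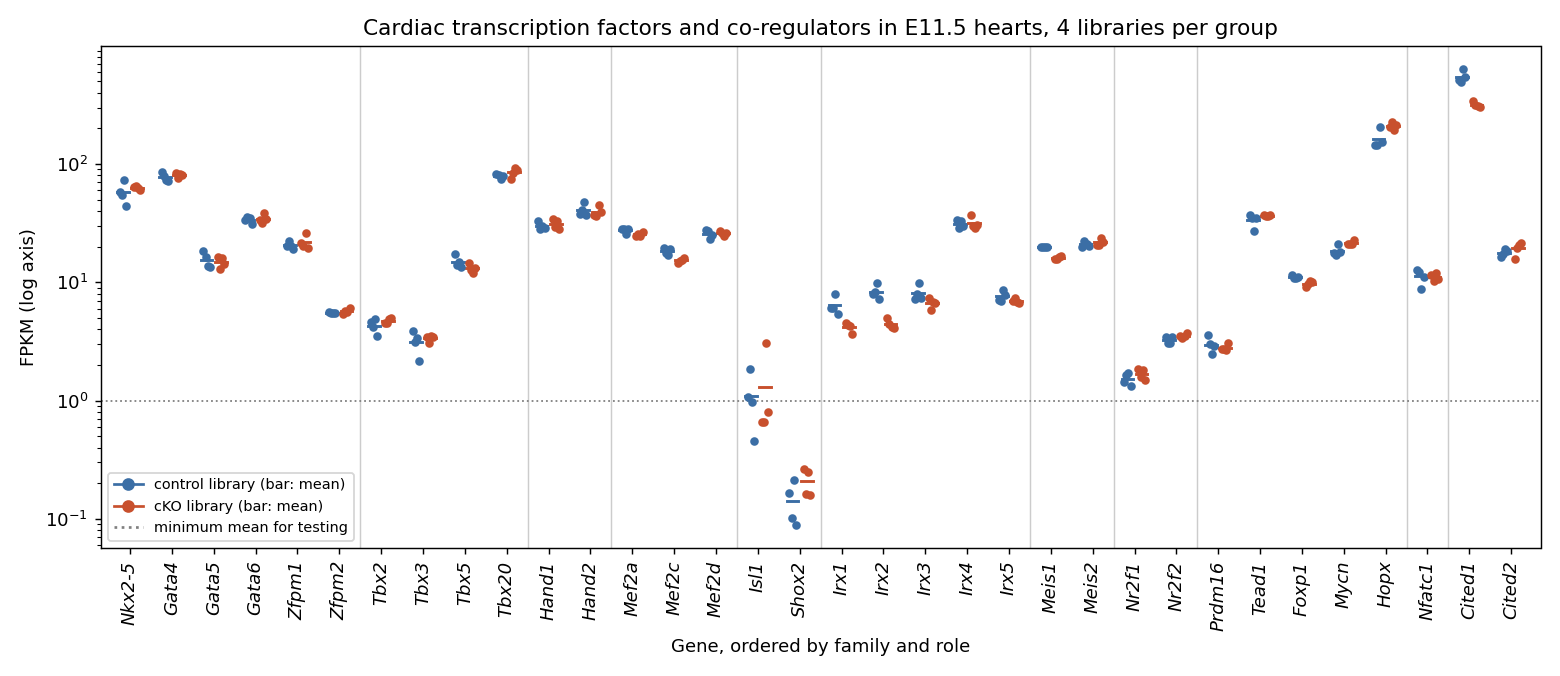
Level of each of the 34 genes in FPKM (log axis) in the 4 control (blue) and 4 cKO (red) libraries, grouped by family and role, with horizontal bars for group means and a dotted line at the minimum mean of 1 FPKM. Levels run from Shox2, below the line, to Cited1 at 304 to 639 FPKM, and the blue and red points separate in few genes.

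Nkx2-5, the homeodomain protein that marks heart muscle from its earliest stage, was 58.2, 54.6, 73.8 and 44.2 FPKM in controls 1 to 4 and 63.7, 64.7, 63.1 and 59.7 FPKM in cKO 1 to 4. The controls spread on both sides of the cKO libraries, with control 3 the highest and control 4 the lowest of all 8. The log2 fold change was 0.14 (standard error 0.13, 95% interval -0.15 to 0.44, adjusted p = 0.437). Without control library 3 it was 0.27 and was called (adjusted p = 0.0453), whereas without control library 4 it was 0.03 (adjusted p = 0.873). It was also called with array weights, at 0.20 (adjusted p = 0.0417). The 3 GATA zinc-finger proteins, partners of Nkx2-5 on muscle genes, differed less: the means were 77.5 and 80.5 FPKM for Gata4, 15.4 and 14.9 FPKM for Gata5 and 33.6 and 34.6 FPKM for Gata6, controls first. Their log2 fold changes were 0.06, -0.05 and 0.04. The cofactors that bind GATA proteins gave 20.5 ± 1.29 and 21.9 ± 2.95 FPKM for Zfpm1 (FOG1) and 5.55 ± 0.08 and 5.67 ± 0.29 FPKM for Zfpm2 (FOG2), as mean ± SD with n = 4 in each group. No member of this group of 6 was called, and the groups overlapped in each.

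Among the T-box proteins, Tbx20, which is needed for growth of the chambers, had the highest level, at 79.4 ± 3.57 FPKM in controls and 85.1 ± 7.75 FPKM in cKO. Tbx5, the activator of atrial and left ventricular genes, was 17.2, 14.1, 14.8 and 13.5 FPKM in controls and 14.6, 12.6, 11.9 and 13.3 FPKM in cKO. Its log2 fold change was -0.18 (interval -0.37 to 0.01, adjusted p = 0.146), and cKO 1 lay above 2 controls. Tbx2 and Tbx3, repressors that keep chamber genes off in the atrioventricular canal, had log2 fold changes of 0.13 and 0.11, with means of 4.31 and 4.74 FPKM for Tbx2 and 3.14 and 3.37 FPKM for Tbx3. None of the 4 T-box genes was called. The basic helix-loop-helix proteins Hand1, linked to the left ventricle, and Hand2, linked to the right ventricle and outflow tract, gave log2 fold changes of 0.06 and -0.06, with intervals that reached from -0.12 to 0.23 and from -0.27 to 0.16.

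The MEF2 proteins are MADS-box factors that bind the promoters of contractile genes. Mef2c, the member needed earliest in heart development, was 19.4, 17.7, 17.1 and 19.3 FPKM in controls and 14.6, 15.2, 15.6 and 16.1 FPKM in cKO, so that every cKO library was below every control. The mean was 16.4% lower. The difference stayed called without each library in turn (log2 fold changes of -0.28 to -0.22). It kept its sign in both sets of libraries defined by the description prefix (-0.33, resting on a single cKO library, and -0.21). It was not called when haemoglobin genes were removed (adjusted p = 0.0716) or in the 5 libraries of one prefix alone (adjusted p = 0.114). Mef2a was 28.5, 28.3, 25.5 and 28.1 FPKM in controls and 24.6, 25.7, 24.9 and 26.7 FPKM in cKO, a log2 fold change of -0.11 (adjusted p = 0.123). Control 3 was the lone control of Mef2a among the cKO values, and without it the log2 fold change was -0.15 and was called (adjusted p = 0.0141). With all 8 libraries and array weights it was -0.13 and was called as well (adjusted p = 0.00828). Mef2d had means of 25.8 and 25.9 FPKM and a log2 fold change of 0.01.

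Isl1, the LIM-homeodomain protein of second heart field progenitors, was near the detection minimum. It was 1.08, 1.84, 0.967 and 0.457 FPKM in controls and 0.658, 0.664, 3.08 and 0.807 FPKM in cKO. The single high value, in cKO 3, set the group mean, and the interval of the log2 fold change reached from -0.84 to 0.98. Shox2, a homeodomain protein of the sinus node, was 0.166, 0.101, 0.211 and 0.0886 FPKM in controls and 0.267, 0.163, 0.247 and 0.160 FPKM in cKO and was not tested, being under the minimum mean.

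The Iroquois homeodomain proteins pattern the ventricles and the conduction system, and in mice their genes stand in 2 clusters of 3. Irx2 was lower in cKO, with a log2 fold change of -0.84, a standard error of 0.09 and an adjusted p of 0.000417. Its FPKM were 7.98, 8.32, 9.77 and 7.26 in controls and 4.97, 4.45, 4.16 and 4.12 in cKO. No cKO library came near the lowest control, and the mean was 46.9% lower. Irx1 was 6.06, 6.12, 7.94 and 5.42 FPKM in controls and 4.57, 4.35, 4.23 and 3.66 FPKM in cKO. The groups again did not overlap, and the log2 fold change was -0.54 (standard error 0.11, adjusted p = 0.0067). It was not called in the 5 libraries of one description prefix alone, where it was -0.63 (adjusted p = 0.0637).

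Irx4, the ventricle-restricted member of the same cluster on chromosome 13, was not called. It was 33.7, 28.8, 32.9 and 30.0 FPKM in controls and 36.9, 30.2, 28.9 and 30.5 FPKM in cKO, a log2 fold change of 0.01 (interval -0.18 to 0.20). In the deposited coordinates (mm10), Irx1 lies at chr13:71958232-71963723 on the minus strand, Irx2 at chr13:72628978-72634194 and Irx4 at chr13:73260497-73269620, both on the plus strand. The Irx1 and Irx2 entries are 665 kb apart, and those of Irx2 and Irx4 626 kb. The ratio of Irx2 to Irx4 within a library, on the log2(FPKM + 0.5) scale, ran from -2.01 to -1.70 in controls and from -2.77 to -2.63 in cKO. The difference of -0.85 had p = 0.0286 in a two-sided exact permutation test, the smallest p that 4 libraries against 4 allow. The log2 ratio of Irx1 to Irx2 was 0.30 higher in cKO, which did not pass after adjustment (exact permutation test, adjusted p = 0.0701). Of 27 such ratios within families, 11 had groups that did not overlap, all at that p, which became 0.0701 after Benjamini-Hochberg adjustment over the 27. Most of the 11 hold a member called on its own, and ratios that share a gene are not independent. The share without overlap among pairs of other genes was not worked out, so the count has nothing to be read against.

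Neither of the members in the Iroquois cluster of chromosome 8 was called. Irx3, which acts in fast conduction tissue, was 7.27, 8.04, 9.94 and 7.36 FPKM in controls and 7.41, 5.79, 6.80 and 6.67 FPKM in cKO. Its log2 fold change of -0.27 was not called (adjusted p = 0.0874), and cKO 1 lay among the controls. The value was called with haemoglobin genes removed (adjusted p = 0.0434) and with array weights (adjusted p = 0.0133). Irx5, a repressor involved in the ventricular repolarisation gradient, had means of 7.65 and 6.95 FPKM and a log2 fold change of -0.13 (adjusted p = 0.185). Irx6, the remaining gene of the cluster and not a member of the set, was 5.11, 5.25, 4.96 and 5.05 FPKM in controls and 4.15, 3.23, 3.63 and 3.39 FPKM in cKO. It was the most stable of the cluster in the controls and was lower in every cKO library (log2 fold change -0.45, adjusted p = 0.00207).

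Other entries in and beside the same intervals were named after their values were seen. Gm20554, a long noncoding RNA on the minus strand at chr13:72623466-72628564, ends 413 bases from Irx2. It was 1.74, 2.09, 1.90 and 2.18 FPKM in controls and 0.908, 1.02, 0.911 and 0.914 FPKM in cKO, a log2 fold change of -0.78 (adjusted p = 0.00041). Its cKO mean of 0.938 FPKM was under the minimum of 1 FPKM, so it was tested only through its level in controls. The entry 4933436C20Rik, a noncoding RNA named Crnde in the annotation, lies 1675 bases from Irx5 and had a log2 fold change of -0.53 (adjusted p = 0.000874). Fto, which encodes an RNA demethylase and lies 130 kb from Irx3, gave -0.42 (adjusted p = 0.00228). In these 3 neighbours all 4 cKO libraries were below all 4 controls, as in 16.3% of all genes tested. Others differed: Rpgrip1l, on the far side of Fto, was higher in cKO, with means of 2.51 and 3.24 FPKM (log2 fold change 0.31, adjusted p = 0.0024), and Ndufs6, beyond Irx4, was not called (-0.12, adjusted p = 0.346). D730050B12Rik, between Irx2 and Irx4, had means of 0.0770 and 0.0726 FPKM and was not tested. The libraries were made with a stranded kit, but whether strand was used in the FPKM estimates is not given in the sources used here.

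**Figure D2:**
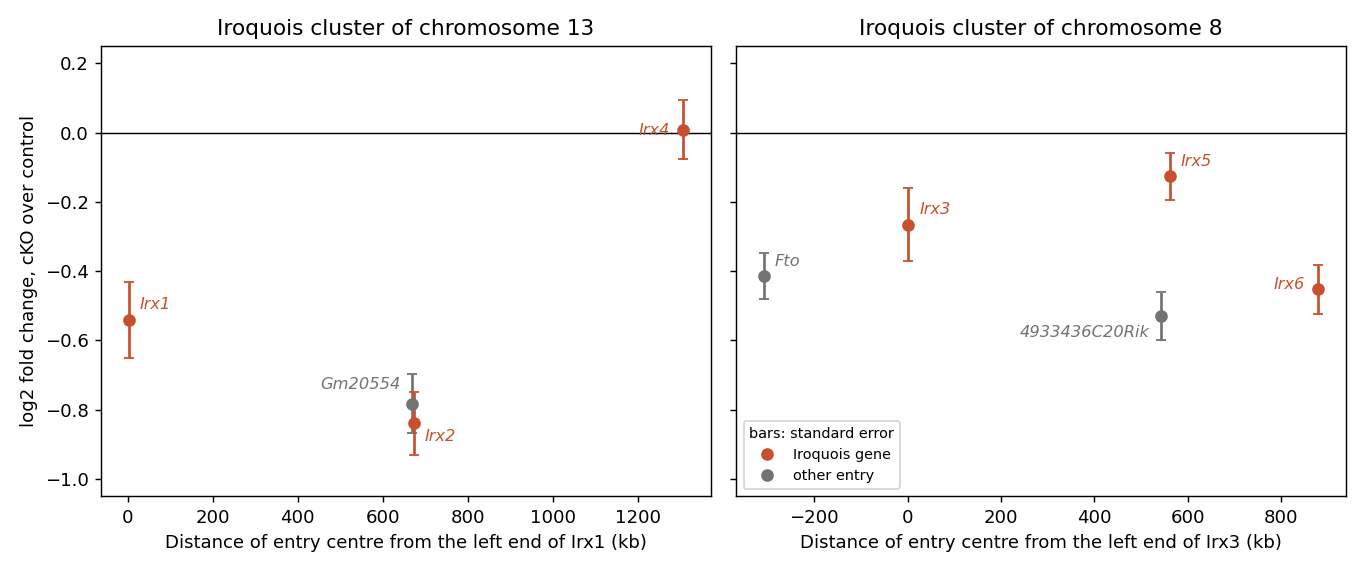
Log2 fold change of cKO over control (vertical axis, bars: standard error) for entries in the Iroquois clusters of chromosomes 13 (left) and 8 (right) against distance in kb, with Iroquois genes in red and other entries in grey. Irx2 and its neighbour Gm20554 sit together near -0.8, Irx1 is at -0.54 and Irx4 is at 0.01.

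Since Irx2 and Gm20554 are divergent neighbours that were both lower, the sequence between them is shown. The RefSeq promoter window of Irx2 (GRCm38.p6, chr13:72628570-72628869, plus strand, 250 bases before to 50 after the annotated start) falls wholly in the gap between the 2 deposited entries. The whole RefSeq span of Irx2 begins further left than the deposited entry, at 72624430, inside the entry of Gm20554. Capitals mark the core motifs found, CCACTT (the reverse strand of the NKX2 core AAGTGG) and CAGATG (the reverse strand of the HAND E-box CATCTG).
Irx2: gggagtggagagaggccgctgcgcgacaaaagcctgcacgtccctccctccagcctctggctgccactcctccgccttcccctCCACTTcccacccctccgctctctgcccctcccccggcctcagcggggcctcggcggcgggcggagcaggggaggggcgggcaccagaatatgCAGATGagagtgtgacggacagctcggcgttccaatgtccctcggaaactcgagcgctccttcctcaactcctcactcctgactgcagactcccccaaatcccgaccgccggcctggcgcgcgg
Guanine and cytosine made up 69.0% of the window, against a median of 52.7% over all promoter windows. NKX2 cores occurred on either strand in 16.9% of the 32851 RefSeq promoter windows and the E-box in 17.2%. The motifs searched do not overlap here. Of the 23 members with a window, 3 held the NKX2 core, 5 the E-box, 2 the GATA core AGATAA (11.2% of all windows), 3 the TEAD core GGAATG (14.7%) and 2 the T-box core AGGTGT (13.7%). These members had 31 windows in total and counted with a match in any of them, whereas the percentages are per window. A match is a run of letters and not evidence that a factor binds there.

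The TALE homeodomain proteins bind DNA with PBX partners. Meis1, known for restraining division of postnatal cardiomyocytes, was 19.7, 19.7, 19.8 and 19.8 FPKM in controls and 15.7, 15.6, 16.4 and 16.6 FPKM in cKO. The controls were nearly identical, with an SD of 0.057 FPKM, and the mean was 18.7% lower in cKO. The log2 fold change was -0.29 (standard error 0.04, adjusted p = 0.000857) and lay between -0.31 and -0.28 without any single library. Its paralog Meis2 was 20.9 ± 1.17 FPKM in controls and 21.7 ± 1.41 FPKM in cKO (log2 fold change 0.05). The log2 ratio of Meis1 to Meis2 was 0.34 lower in cKO, and its groups did not overlap (exact permutation p = 0.0286, adjusted p = 0.0701). The nuclear receptors Nr2f2 (COUP-TFII), which sets atrial identity, and Nr2f1 had log2 fold changes of 0.10 and 0.11 and were not called, with means of 3.26 and 3.52 FPKM for Nr2f2 and 1.53 and 1.69 FPKM for Nr2f1. Nr2f2 was called with array weights (adjusted p = 0.0487).

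Factors of the compact wall and of growth moved in both directions. Hopx, a homeodomain protein that does not bind DNA and tempers the serum response factor, was 146, 145, 205 and 153 FPKM in controls and 206, 227, 195 and 213 FPKM in cKO. Control 3 alone reached the cKO range, and the other controls stayed well below it. The log2 fold change was 0.39 (standard error 0.11, adjusted p = 0.0311). It rose to 0.50 without control 3 (adjusted p = 0.000561), and it was not called without control 1, 2 or 4 or cKO 1, 2 or 4, at adjusted p values of 0.0595 to 0.0847. Within the libraries of each description prefix it was 0.50 and 0.25, and it was not called in the larger of these sets alone (adjusted p = 0.285) or with no filter on low values (adjusted p = 0.0817).

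Mycn, a MYC-family factor needed for division of cardiomyocytes in the compact wall, was 17.7, 17.1, 21.1 and 18.1 FPKM in controls and 21.3, 21.1, 21.0 and 22.9 FPKM in cKO. As for Hopx, control 3 was the one control among the cKO values. The log2 fold change of 0.22 (standard error 0.07, adjusted p = 0.0389) was 0.28 without control 3 (adjusted p = 0.00184). It was not called without any one of the other 7 libraries (adjusted p 0.0627 to 0.110), with no filter on low values (0.0815), with the description prefix in the model (0.0517) or in the 5 libraries of one prefix (0.311). The paralog Myc and the shared dimer partner Max, which are not members, were higher too, with log2 fold changes of 0.26 and 0.30 and no overlap between groups.

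Foxp1, a forkhead protein that regulates cardiomyocyte division, was 11.6, 10.9, 10.8 and 11.1 FPKM in controls and 9.14, 9.71, 10.2 and 9.99 FPKM in cKO. All 4 cKO libraries lay below the controls, by a log2 fold change of -0.18 (standard error 0.05, adjusted p = 0.0192). It was just above the threshold without control 1 (adjusted p = 0.0509) or cKO 2 (adjusted p = 0.0538), and was not called with haemoglobin genes removed (0.115) or within one prefix (0.173). Tead1, the DNA-binding partner of the Hippo pathway's YAP, was 37.2, 34.9, 27.3 and 34.7 FPKM in controls and 36.9, 36.4, 36.3 and 37.1 FPKM in cKO. Control 3 was low and the rest were alike, and the log2 fold change of 0.14 was not called. The TEAD paralogs, outside the set, moved apart: Tead2 was lower (-0.35, adjusted p = 0.00615) and Tead4 higher (0.47, adjusted p = 0.0019). Prdm16, a zinc-finger protein of compact myocardium, had means of 2.98 and 2.80 FPKM (log2 fold change -0.07). Nfatc1, a calcium-responsive factor of endocardium and valves, had means of 11.2 and 11.1 FPKM.

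**Figure D3:**
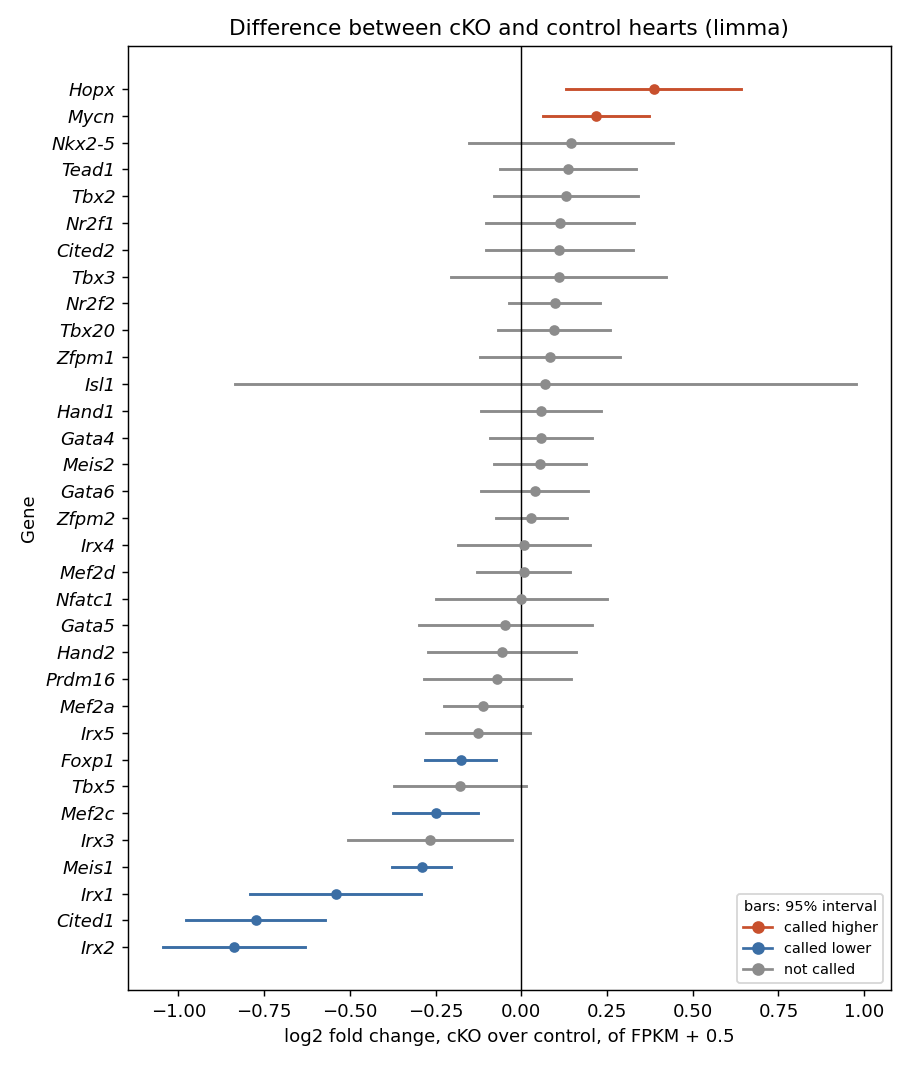
Log2 fold change of cKO over control for the 33 members tested, ordered by value, with bars for the 95% interval from limma on log2(FPKM + 0.5). Red marks the 2 called higher, blue the 6 called lower and grey the 25 not called, among which Isl1 has by far the widest interval.

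The CITED proteins bind the acetyltransferase CBP and its paralog and bring them to other factors. Cited1 had the highest level of the set, at 509, 496, 639 and 539 FPKM in controls and 344, 315, 307 and 304 FPKM in cKO. Every cKO library was far below the lowest control, and the mean was 41.8% lower. The log2 fold change of -0.77 lay between -0.82 and -0.70 without any single library and was called under each of the 21 alternative settings. Cited2, needed for septation of the outflow tract, was 16.5, 17.5, 19.0 and 18.3 FPKM in controls and 15.8, 19.6, 20.7 and 21.6 FPKM in cKO. Its log2 fold change was 0.11 (adjusted p = 0.408). It was 0.21 and was called without cKO 1 (adjusted p = 0.0465), the lowest of the 8 libraries. The log2 ratio of Cited1 to Cited2 was 0.89 lower in cKO (exact permutation p = 0.0286, adjusted p = 0.0701).

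Cited1 is X-linked and its deposited entry, at chrX:102247378-102252181, lies 563 kb from that of Ogt. Of the 18 other entries tested within 1 Mb of Ogt, 5 were lower in cKO, Cited1 among them, and 0 were higher. That is 27.8% called lower, against 14.9% of all genes called lower and 30.7% called in either direction. The share includes Cited1, which was already known to be lower, so it is not independent of that call. Nono and Rps4x passed only narrowly, each at a limma adjusted p of 0.0445. Itgb1bp2 fell most of the 5, with a log2 fold change of -1.08 (limma adjusted p = 0.000113). Why these entries were lower was not tested. RefSeq gives Cited1 several promoter windows. The one whose start matches the end of the deposited entry (GRCm38.p6, chrX:102252132-102252431, minus strand) is shown as the promoter of the most abundant member, with capitals for the letters TATAAA, a motif added after the windows were seen. Their first base lies 13 bases upstream of the annotated start.
Cited1: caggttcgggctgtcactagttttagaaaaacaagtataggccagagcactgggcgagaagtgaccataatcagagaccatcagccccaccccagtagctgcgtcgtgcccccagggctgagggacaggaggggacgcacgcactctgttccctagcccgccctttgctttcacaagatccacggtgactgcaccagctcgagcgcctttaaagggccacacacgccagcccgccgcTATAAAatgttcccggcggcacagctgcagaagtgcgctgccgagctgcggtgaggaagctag
These letters occurred on either strand in 13.6% of all promoter windows and in 6 of the 31 windows of members, which belonged to 4 of 23 members. None of the other 5 motifs was found in this window.

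**Figure D4:**
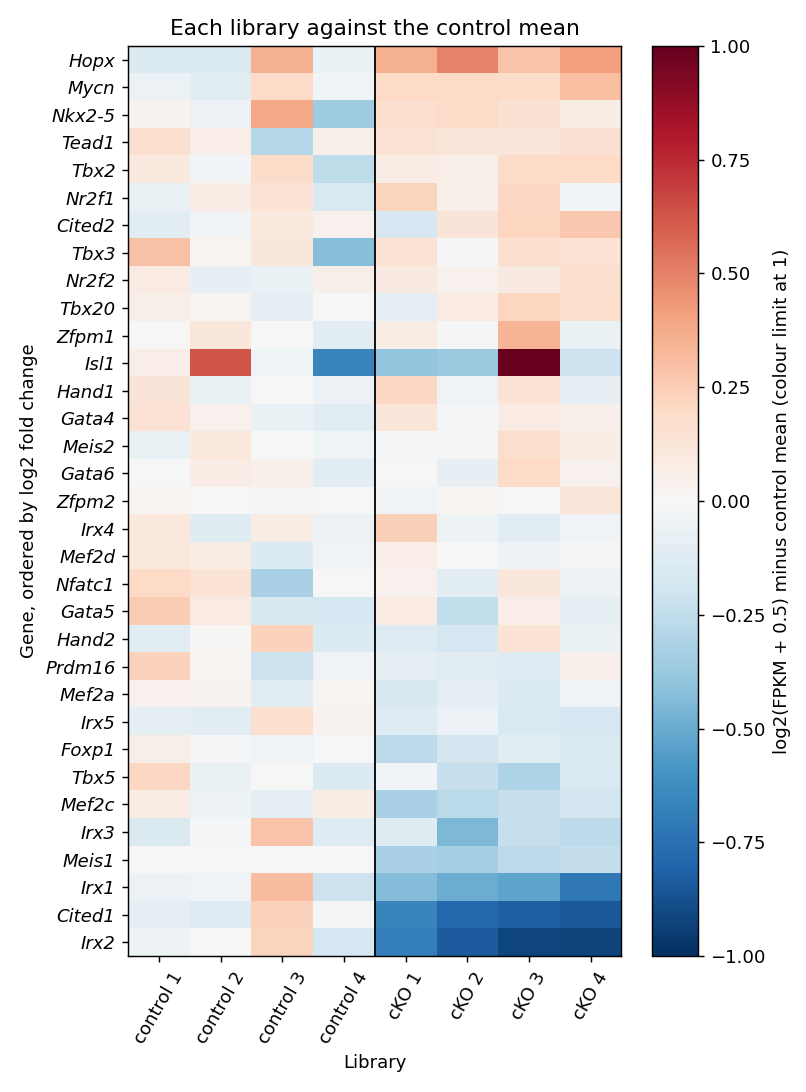
Heat map of log2(FPKM + 0.5) minus the control mean for 33 members (rows, ordered by log2 fold change) in the 8 libraries (columns), with the colour limit at 1. The lowest rows (Meis1, Irx1, Cited1 and Irx2) are blue in all 4 cKO libraries, while control 3 differs from the other controls in Hopx, Nkx2-5, Tead1 and others.

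The heat map of single libraries shows how much of the members' spread lay inside the groups. The median coefficient of variation of a member was 9.84% among controls and 6.49% among cKO, against 8.72% and 5.51% for all genes tested. The difference between groups within the libraries of each prefix kept its sign for all 8 called members. It was -0.55 and -0.93 for Cited1, -0.66 and -0.91 for Irx2, -0.38 and -0.63 for Irx1, -0.32 and -0.28 for Meis1, -0.28 and -0.13 for Foxp1 and 0.28 and 0.14 for Mycn, where the first value rests on a single cKO library.

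Genes around the set were read from lists of other cardiac regulators, of paralogs and partners, and of genes known to respond to these factors. Of 19 other cardiac regulators tested, 1 was higher and 6 were lower, with a median log2 fold change of -0.13. Smarcd3, a subunit of the cardiac BAF chromatin complex, was the higher one (0.46, adjusted p = 0.000538). Among the lower were the serum response factor Srf (-0.39), its coactivator Myocd (-0.50) and the Krüppel-like factor Klf13 (-0.39).

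Of 28 paralogs and partners, 5 were higher and 3 lower. Pbx4, a TALE partner, rose from 0.866 to 1.70 FPKM (log2 fold change 0.69), and its groups did not overlap. Its control mean was under the minimum of 1 FPKM, so it was tested only through its level in cKO. Of 22 genes known to respond to these factors, 2 were higher, the natriuretic peptide Nppb (0.96) and the potassium channel subunit Kcne1 (0.62). The 3 lower ones were the gap junction genes Gja5 (-0.87) and Gja1 (-0.53) and Cdkn1c, an inhibitor of cell division (-0.38). The other 17 tested were not called. The 3 lists had 36.8%, 28.6% and 22.7% of their tested genes called, against 30.7% of all genes.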

How the data were processed

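RNA of E11.5 hearts in 4 control and 4 cKO libraries was analysed as deposited by the authors, in FPKM per gene entry. Per the labels and methods, TruSeq stranded mRNA libraries were aligned to mm10 with TopHat2 and Bowtie2, and differential expression was tested with Cuffdiff2. Versions are not given in the sources used here. The deposited values are another normalized unit than counts, so absolute depth is unknown. Text codes in place of a number filled 1.32% of the cells, and 23521 entries had a number in all libraries. A deposited p-value column of the authors was not used. Entries averaging 1 FPKM or more were tested as log2(FPKM + 0.5) with limma 3.58.1 (R 4.3.3, trend in the empirical Bayes step, 2 group means), with Benjamini-Hochberg adjustment over all 12629. Fold changes on this scale understate those of low genes. The fit was tested on simulated data. The members, marker lists and gene lists were chosen with earlier results of these data known. All members are named, whatever their result, with up to 4 called genes per direction of the other lists, except that some are not reported here. Alternatives changed the pseudocount (0.1 or 1), the filter (none, or 5 FPKM), the scaling (quantile, median ratio, or without haemoglobin genes), the variance model (no trend, robust, or array weights), the replicate block, the description prefix and the libraries. Hba-a1 and Mecom, with more than 1 entry, were left out of the lists. Promoter windows came from RefSeq (GRCm38.p6).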

Additional observations from a re-analysis of the deposited data

Results flagged for a closer look

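In 68 groups of 4 libraries (34 genes in each genotype), 5 had one library far from the others by Dixon's criterion, which flags about 1 in 20 groups by chance. Hopx was 205 FPKM in control 3, while the other controls lay between 145 and 153 FPKM. Mef2a was 25.5 FPKM in control 3, below the 28.1 to 28.5 FPKM of the other controls. Isl1 was 3.08 FPKM in cKO 3, against 0.658 to 0.807 FPKM in the rest of that group. Mycn was 22.9 FPKM in cKO 4, above the 21.0 to 21.3 FPKM of the other cKO libraries. Tbx3 was 3.06 FPKM in cKO 2, below 3.45 to 3.51 FPKM.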

How the results depend on the processing

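The 33 members gave 686 values under the alternatives. Of these, 613 kept their direction and their side of the threshold, 28 were no longer called, 8 became called and 37 changed sign. No called member changed sign, and Irx2, Meis1 and Cited1 were called under all 21 alternatives. Over all genes, 2002 were higher and 1877 lower, against 3468 and 3114 with array weights and 740 and 725 in the 5 libraries of one description prefix. The 2 members called higher became 0 with no filter on low values, 4 with array weights, 0 with the replicate block, 1 with the description prefix as covariate, 0 within one prefix and 0 to 3 (3 without control 3) when one library was left out. The 6 called lower became 3 within one prefix and 5 to 7 when one library was left out. The replicate numbers did not pair the libraries. The correlations of same-numbered deviations were 0.13, 0.16, -0.01 and 0.01, and controls 1 and 2 correlated best with their own numbers while 3 and 4 did not. With the replicate block, 1741 genes were higher and 1702 lower, and Hopx (adjusted p = 0.0686), Mycn (0.0630) and Foxp1 (0.0577) were not called.

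Sign changes came in 12 members that were not called, whose log2 fold changes in the fit used above lay between -0.07 (Prdm16) and 0.11 (Tbx3). With array weights they were -0.016 for Gata6, -0.019 for Zfpm1, -0.055 for Mef2d, -0.39 for Isl1 and -0.0072 for Meis2. With quantile normalization they were -0.026 for Mef2d, -0.022 for Isl1 and -0.016 for Irx4, and with median ratio scaling -0.0015 for Mef2d and -0.00016 for Irx4. With the prefix as covariate Gata5 was 0.020 and Nfatc1 0.053, and within one prefix Gata5 was 0.080, Irx4 -0.074, Prdm16 0.064 and Nfatc1 0.15. Nfatc1 was 0.00025 with the lower pseudocount and 0.0067 without haemoglobin genes. Leaving out one library gave -0.10 to 0.039 for Gata5, -0.014 to 0.080 for Gata6, -0.0017 to 0.13 for Zfpm1, -0.00039 to 0.052 for Zfpm2, -0.034 to 0.21 for Tbx3, -0.12 to 0.021 for Hand2, -0.039 to 0.041 for Mef2d, -0.15 to 0.28 for Isl1, -0.067 to 0.049 for Irx4, -0.14 to 0.0074 for Prdm16 and -0.11 to 0.066 for Nfatc1. Isl1 has no value without cKO 3, since its mean then falls under the minimum. The cause of these changes was not tested. With 4 libraries a group and no read counts, a member that was not called may still differ by any amount inside its 95% interval.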
